A study of Mus musculus with 12 samples.

Results

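The 41 genes described here belong to the interferon response and to class I antigen presentation, and they were followed across 6 tumors and 6 benign samples of the mouse mammary gland. They were chosen by name, as 31 interferon-induced genes and 10 genes that make, load or control class I molecules. Earlier results of these data were known when they were chosen. All 41 were among the 16411 genes of the deposited table. All 12 samples came from female mice carrying the MMTV-Neu-NDL-YD5 transgene on an FVB background, without treatment. The MMTV promoter drives an activated form of HER2, the receptor encoded by Erbb2, in the mammary epithelium. Benign samples were taken where no tumor could be seen, from mice that carried the transgene too. By the paper's methods these mice bore tumors, and the benign tissue came from the gland region most distant from them. The example given there is inguinal tissue where tumors were cervical, so the region could differ between mice. The tumors and the benign samples were taken from different mice. The age of each mouse is not given in the sources used here. The samples are bulk tissue, in which fewer cells of a type and less RNA per cell cannot be told apart.

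Interferons are secreted proteins that bind receptors on the cell surface and activate a transcription factor made of STAT proteins and IRF9, which turns on interferon-stimulated genes through a promoter element called ISRE. Type II interferon acts through a different element, GAS. Many of the induced proteins detect or block viral RNA, and others widen the display of peptides on class I molecules, the step by which CD8 T cells recognize infected or transformed cells. Peptides for class I are cut by the proteasome, carried into the endoplasmic reticulum by the transporter made of TAP1 and TAP2, and loaded onto a heavy chain bound to beta-2-microglobulin.

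RefSeq promoter windows on GRCm38.p6 (250 bases before to 50 bases after a gene's start, 300 bases in all) were given for 33 of the 41 genes. The letters GAAANNGAAA, an ISRE type, stood on either strand in the window of 15 of these 33 genes, against 3.99% of the 27025 genes with a window. By set, it stood in 14 of 25 interferon-induced genes and in 1 of 8 class I genes, B2m. The letters TTCNNNGAA, a GAS type whose reverse strand reads the same, stood in 9 of the 33, against 9.55% of the 27025 genes. Matches of the 2 motifs were counted separately, and the bases of 1 can overlap those of the other. The following stretches show the ISRE type in promoters of 4 genes that were higher in tumors (Isg15, Oas1a, Ifit1 and Irgm1) and of 2 that did not pass the test (Gbp2 and B2m). Each is 100 bases of the gene's own strand before its start, outside the transcript, with every ISRE match in capitals, and matches on the opposite strand read TTTC first.
Isg15: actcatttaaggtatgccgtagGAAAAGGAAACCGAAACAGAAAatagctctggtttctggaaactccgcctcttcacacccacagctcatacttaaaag
Oas1a: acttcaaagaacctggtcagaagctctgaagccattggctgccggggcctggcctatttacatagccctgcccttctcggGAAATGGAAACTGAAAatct
Ifit1: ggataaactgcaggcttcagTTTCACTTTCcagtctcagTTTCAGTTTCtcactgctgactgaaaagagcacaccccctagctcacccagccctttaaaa
Irgm1: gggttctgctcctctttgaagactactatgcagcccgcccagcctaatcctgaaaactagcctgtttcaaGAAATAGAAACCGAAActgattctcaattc
Gbp2: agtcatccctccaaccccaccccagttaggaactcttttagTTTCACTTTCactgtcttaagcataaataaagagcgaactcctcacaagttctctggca
B2m: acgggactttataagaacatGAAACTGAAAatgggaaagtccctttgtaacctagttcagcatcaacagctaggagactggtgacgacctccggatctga

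The Isg15 stretch is chr4:156200819-156200918 on the minus strand and holds 3 overlapping matches. The Oas1a stretch is chr5:120907526-120907625 (minus strand, 2 matches) and the Ifit1 stretch is chr19:34640765-34640864 (plus strand, 2 matches). The Irgm1 stretch is chr11:48871421-48871520 (minus strand, 2 matches), the Gbp2 stretch is chr3:142620563-142620662 (plus strand, 1 match) and the B2m stretch is chr2:122147528-122147627 (plus strand, 1 match). Among interferon-induced genes with a window, the ISRE type stood in 7 of the 13 that were higher in tumors and in 7 of the 12 that did not pass the test. The GAS type stood in 1 of those 13 and in 7 of those 12. These counts describe letters in a window and were not tested.

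Total counts ranged from 5240853 to 8588567 per sample, and values below are CPM, counts scaled to library size, adjusted by edgeR's TMM method. Erbb2 ranged from 44.8 to 73.7 CPM in benign tissue and from 1989 CPM in tumor sample 4 to 16634 CPM in tumor sample 3. The summed level of 6 epithelial markers ranged from 842 to 2182 CPM in benign tissue and from 2107 to 3925 CPM in tumors, where tumor sample 1 lay inside the benign range, and 4 of the 6 were higher and Krt19 was lower. The summed level of 6 adipocyte markers ranged from 8302 to 18198 CPM in benign tissue and from 11.4 to 104 CPM in tumors. For 5 endothelial markers the sums were 530 to 997 CPM in benign tissue and 78.6 to 98.1 CPM in tumors. For 5 dendritic cell markers they were 23.3 to 83.2 CPM and 4.51 to 8.91 CPM. Benign sample 1 stood apart by lymphocyte RNA. Its 8 B cell markers summed to 829 CPM and its 8 T cell markers to 787 CPM, against at most 9.5 and 21.1 CPM in the other benign samples. Benign samples 3, 4 and 6 held skeletal muscle RNA, with 45658, 30381 and 77575 CPM summed over 6 muscle markers. That sum was 323 CPM in benign sample 5, 120 CPM in tumor sample 5 and at most 22.3 CPM in the other samples. The groups are therefore compared with and without benign sample 1 below. Counts without benign samples 3, 4 and 6 are given with the alternatives near the end.

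The question here is whether the interferon-induced genes and the class I genes differed between tumors and benign tissue. All 41 passed the expression filter and were tested by edgeR's quasi-likelihood test, with p-values adjusted by Benjamini-Hochberg over 13191 genes and read at 0.1. Of the 31 interferon-induced genes, 16 were higher in tumors (51.6%) and 0 were lower, where 28.2% of all genes tested were higher and 34.8% were lower. Of the 10 class I genes, 0 were higher and 2 were lower. DESeq2, at the same adjusted threshold, likewise gave 0 lower interferon-induced genes and 0 higher class I genes. An unadjusted p under 0.05 was the stricter cut in the edgeR test (3565 genes higher against 3720). The same counts of 0 there were therefore fixed in advance and add nothing. The median log2 fold change, tumor over benign, was 1.15 over the interferon-induced genes and 0.15 over the class I genes, against -0.06 over all genes tested. Members of a pathway are not independent of each other, so these shares and medians describe the lists and carry no test. The lists were also chosen with earlier results of these data known. Of 62 other interferon-induced genes tested, 29.03% were higher, near the share of all genes tested.

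**Figure D1:**
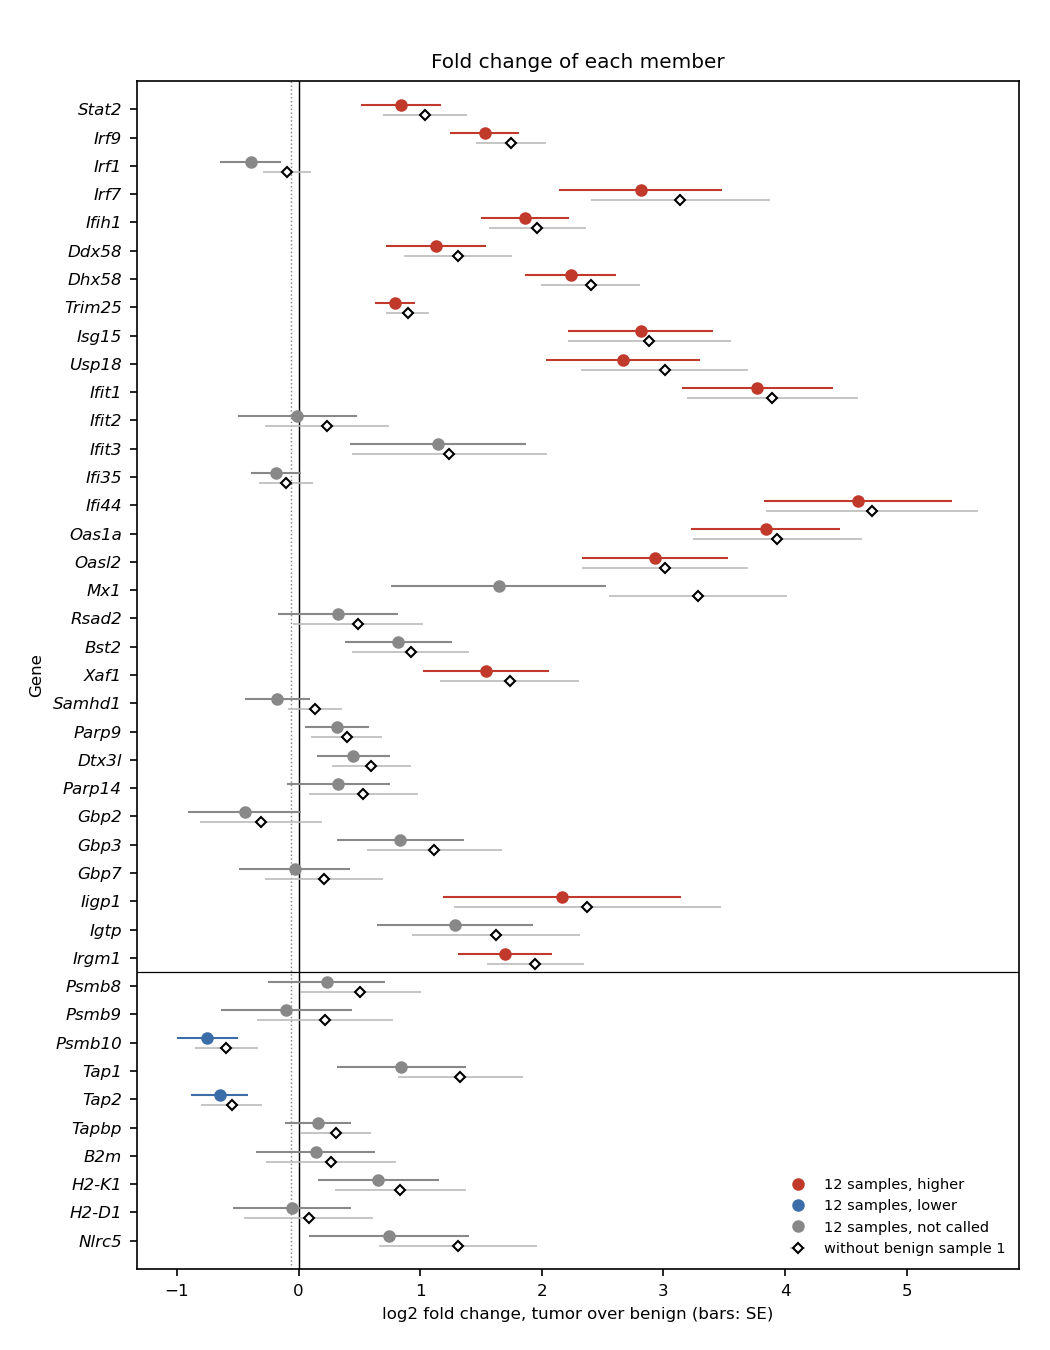
Log2 fold change, tumor over benign, of each of the 41 genes (x axis) with its standard error, for all 12 samples (filled circles) and without benign sample 1 (open diamonds). Red marks genes higher in tumors, blue marks lower and grey marks genes that did not pass the test, the dotted line is the median of all genes tested, and the horizontal line parts the 31 interferon-induced genes (above) from the 10 class I genes, of which only Psmb10 and Tap2 are blue.

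The tumors differed more among themselves than the benign samples did. The SD of log2 CPM was larger among tumors than among benign samples for 39 of the 41 genes (95.1%), all but Irf1 and Mx1, where 43.3% of all genes tested had the larger SD in tumors. The median of these SDs was 1.30 in tumors and 0.39 in benign tissue, against 0.29 and 0.33 over all genes tested. Tumor sample 4 was the highest tumor for all 41 genes, which held for 10.3% of all genes tested. Tumor sample 5 was the lowest tumor for 37 of the 41, against 23.9%. The exceptions were Ifit2, Rsad2, Psmb10 and Tap2, which were lowest in tumor sample 1. Over the 41 genes the median ratio of tumor sample 4 to tumor sample 5 was 11.5, while the median ratio of the highest to the lowest benign sample was 2.13. Tumor sample 6 was the second highest for 27 genes and tumor sample 1 the second lowest for 35, against 2282 and 2501 of the 13191 genes tested.

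Set beside benign tissue, tumor sample 4 was above all 6 benign samples for 37 of the 41 genes, against 3728 of the 13191 genes tested. The exceptions were Irf1, Samhd1, Psmb10 and Tap2. Tumor sample 5 was below all 6 benign samples for 32 of the 41 (78.0%, against 35.6% of all genes tested), and these included all 10 class I genes. It was above all benign samples for 1 gene, Ifit1. All 6 tumors lay above all 6 benign samples for Ifit1 alone, against 14.7% of all genes tested, and for 0 genes did all 6 lie below, against 21.2%. For 12 genes, all of them interferon-induced, at least 5 of the 6 tumors exceeded the highest benign value, against 20.6% of all genes tested.

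**Figure D2:**
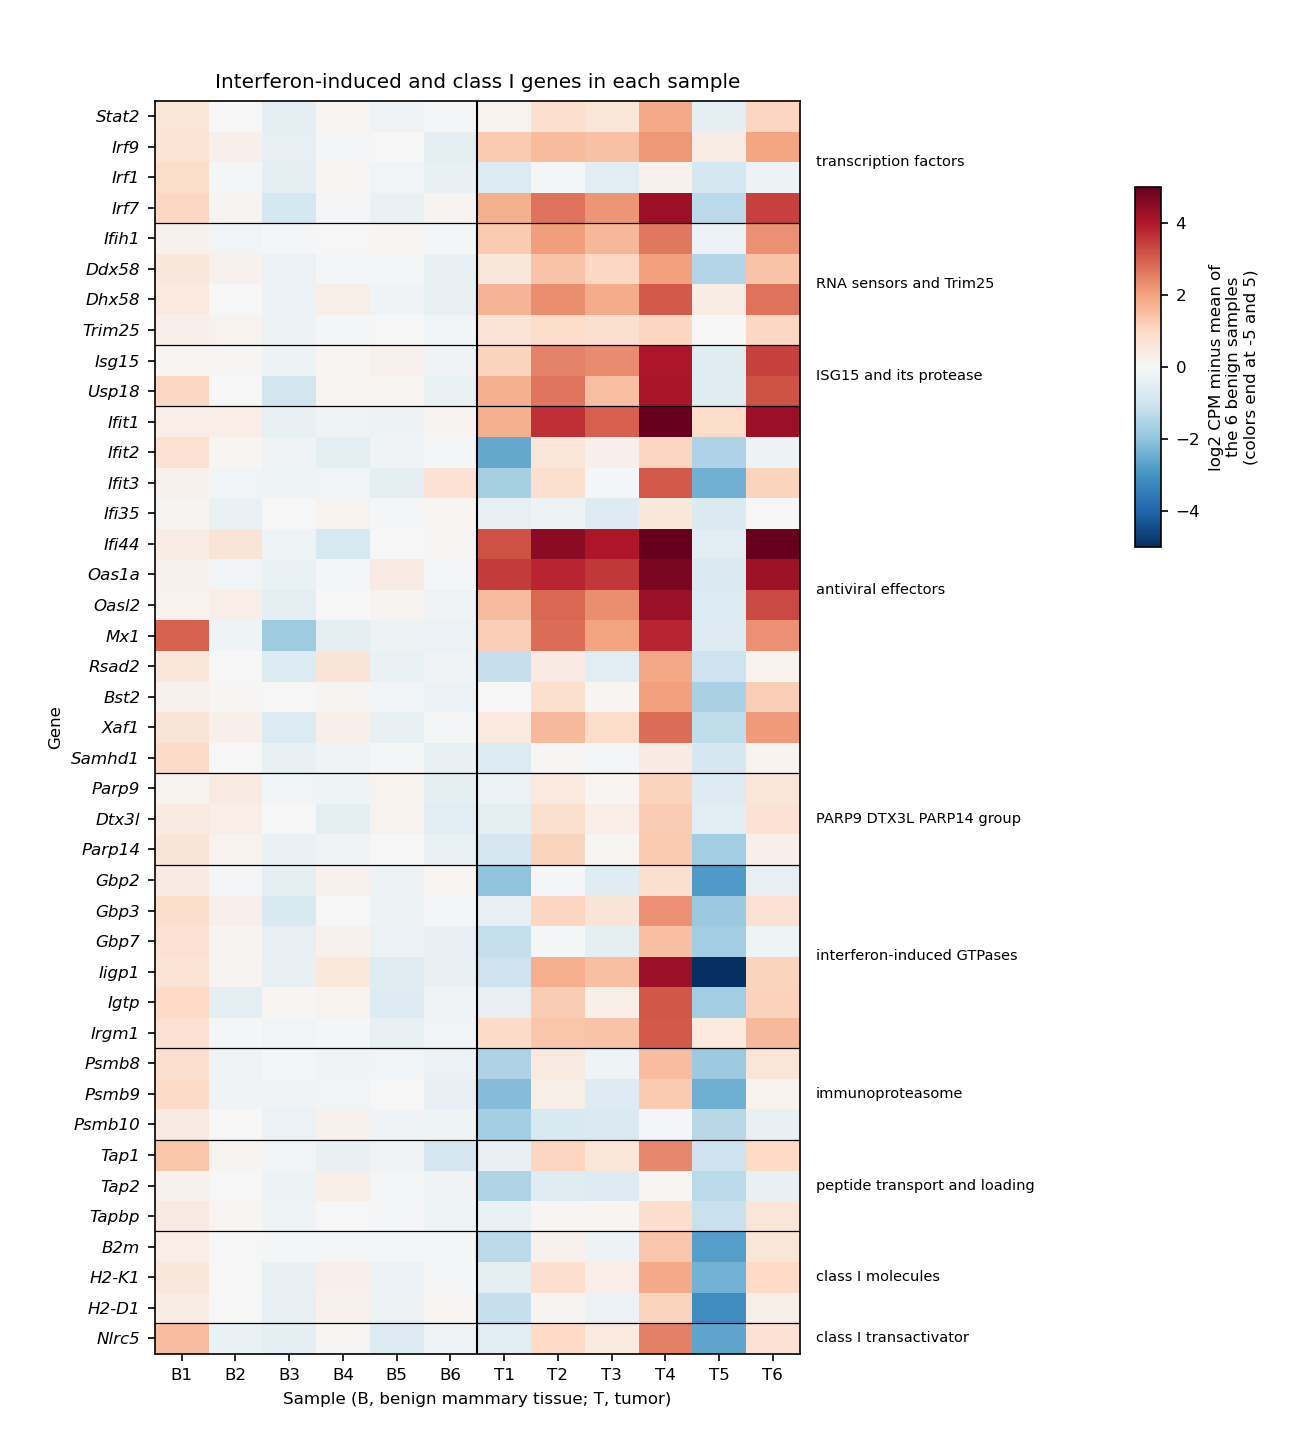
Log2 CPM of each of the 41 genes (rows, grouped by role) in each of the 12 samples (columns), as the difference from the mean of the 6 benign samples. Colors end at -5 and 5, and tumor sample 4 has the highest value of the tumors in every row, with tumor sample 5 the lowest in 37 of the 41 rows.

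The mean log2 CPM over the 31 interferon-induced genes ranged from 4.13 to 5.14 in benign tissue. In tumor samples 1 to 6 it was 4.82, 6.02, 5.52, 7.1, 3.47 and 6.12, so that 4 tumors lay above every benign sample, tumor sample 1 lay within their range and tumor sample 5 lay below it. Benign sample 1 held the highest benign value here too, and the other benign samples reached 4.60, below tumor sample 1. Over the 10 class I genes it ranged from 7.44 to 8.40 in benign tissue and was 6.59, 7.97, 7.57, 9.0, 5.70 and 8.12 in tumor samples 1 to 6. There, only tumor sample 4 lay above every benign sample, and tumor samples 1 and 5 lay below them all. Without benign sample 1, whose mean of 8.40 was the highest benign value, tumor samples 2 and 6 also lay above the benign range.

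**Figure D3:**
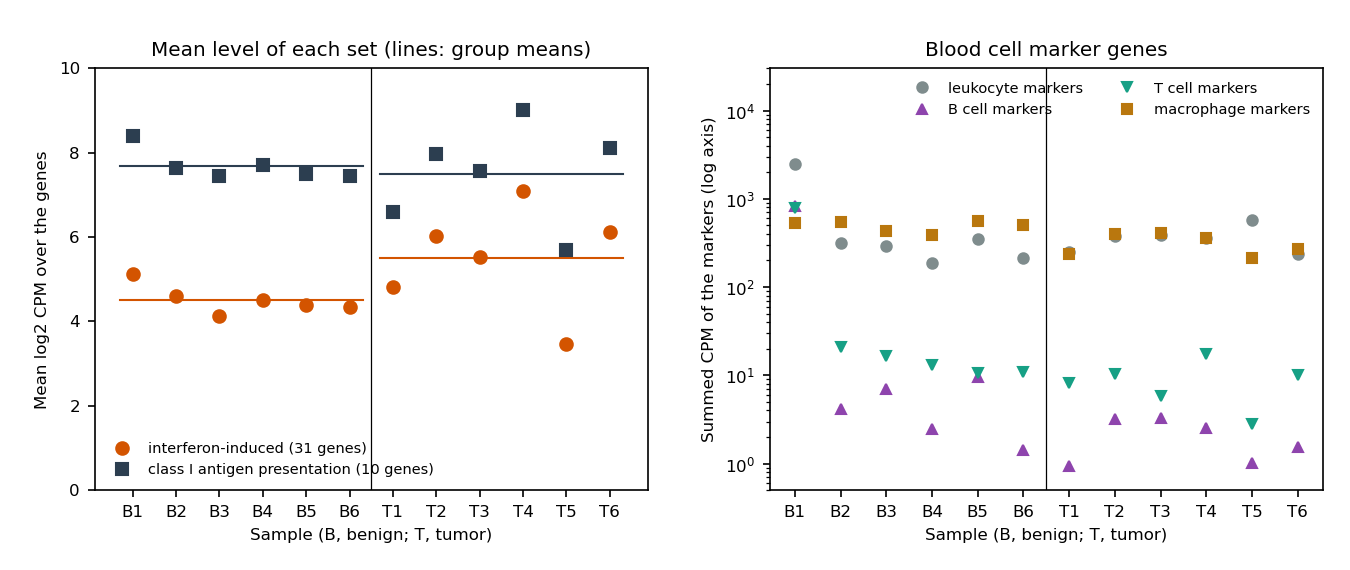
Left, mean log2 CPM over the 31 interferon-induced genes (circles) and the 10 class I genes (squares) in each sample, with lines at the group means. Right, summed CPM of leukocyte, B cell, T cell and macrophage markers in the same samples on a log axis, where benign sample 1 has 2489 CPM of leukocyte markers and the other 11 samples have 186 to 572 CPM.

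Transcription factors of the pathway rose in 3 of 4 cases. Irf7, which amplifies type I interferon production, ranged from 8.97 to 34.6 CPM in benign tissue (median 17.2) and from 6.39 to 334 CPM in tumors (median 95.5). Tumor sample 5 was below every benign sample and the other 5 tumors were above them all. The change was 7.03-fold (log2 fold change 2.81, SE 0.67, adjusted p = 0.00307 by edgeR). Irf9, the DNA-binding partner of the interferon-activated complex, ranged from 30.5 to 68.0 CPM in benign tissue (median 41.8) and from 54.7 to 193 CPM in tumors (median 122), where 5 of 6 tumors were above every benign sample (log2 fold change 1.53, SE 0.28, adjusted p = 0.000482 by edgeR). Stat2, a further part of that complex, ranged from 32.1 to 68.4 CPM in benign tissue (median 43.9) and from 33.1 to 168 CPM in tumors (median 73.9). Its groups overlapped, with 3 tumors above every benign sample, and the change was smaller (log2 fold change 0.84, SE 0.33, adjusted p = 0.0426 by edgeR). Irf1, which interferon gamma induces strongly, did not pass the test, with 62.3 to 159 CPM in benign tissue and 45.3 to 98.7 CPM in tumors (log2 fold change -0.39, SE 0.25, adjusted p = 0.197 by edgeR).

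All 4 genes of RNA sensing rose. Ifih1 encodes MDA5, a sensor of long double-stranded RNA, and ranged from 19.7 to 25.6 CPM in benign tissue (median 21.6) and from 17.8 to 137 CPM in tumors (median 81.8). The 5 tumors other than tumor sample 5 were above every benign sample, and the change was 3.63-fold (log2 fold change 1.86, SE 0.36, adjusted p = 0.000691 by edgeR). Dhx58, whose product LGP2 modulates MDA5 and RIG-I, rose from a benign range of 6.21 to 11.5 CPM to a tumor range of 10.6 to 69.8 CPM (log2 fold change 2.24, SE 0.37, adjusted p = 0.000222 by edgeR). Ddx58, the gene of RIG-I, had 38.9 to 75.0 CPM in benign tissue and 18.4 to 212 CPM in tumors, with tumor sample 1 at 74.9 CPM inside the benign range and tumor sample 5 below it (log2 fold change 1.13, SE 0.41, adjusted p = 0.0320 by edgeR). Trim25, a ubiquitin ligase that assists RIG-I, showed the narrowest spread of these, with 56.7 to 81.5 CPM in benign tissue and 69.6 to 145 CPM in tumors (log2 fold change 0.79, SE 0.16, adjusted p = 0.00116 by edgeR).

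Isg15, a ubiquitin-like protein that is attached to other proteins, and Usp18, the protease that removes it and also blocks the interferon receptor, both rose. Isg15 had 3.96 to 5.62 CPM in benign tissue (median 5.09). In tumor samples 1 to 6 it had 10.9, 28.2, 25.9, 83.2, 3.07 and 54.6 CPM, so that 5 tumors were above and tumor sample 5 was below all benign samples. The change was 7.03-fold (log2 fold change 2.81, SE 0.60, adjusted p = 0.00137 by edgeR). Usp18 ranged from 2.11 to 9.08 CPM in benign tissue (median 4.40) and from 2.69 to 76.4 CPM in tumors (5 of them above every benign sample), a 6.35-fold change (log2 fold change 2.67, SE 0.64, adjusted p = 0.00307 by edgeR).

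Of the 12 antiviral effectors, 5 rose (41.7%) and 7 did not pass the test, and 8 were higher without tumor sample 5. The largest rise among the 41 genes was that of Ifi44, which restrains viral replication. It ranged from 1.43 to 4.30 CPM in benign tissue (median 2.73) and from 1.79 to 163 CPM in tumors (median 57.8), a 24.3-fold change (log2 fold change 4.60, SE 0.77, adjusted p = 0.000233 by edgeR). The 5 tumors other than tumor sample 5 had 26.5 CPM or more. Oas1a, an enzyme of the family that activates RNase L, was 14.3-fold higher (log2 fold change 3.84, SE 0.61, adjusted p = 0.000160 by edgeR). It had 3.43 to 5.99 CPM in benign tissue, 2.56 CPM in tumor sample 5 and 53.2 to 124 CPM in the other tumors.

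Ifit1, which binds viral RNA that lacks a host-type cap, was the gene without overlap between the groups. It ranged from 3.30 to 5.61 CPM in benign tissue (median 4.27), and tumor samples 1 to 6 had 15.6, 58.2, 36.4, 157, 8.44 and 88.4 CPM. The change was 13.7-fold (log2 fold change 3.77, SE 0.62, adjusted p = 0.000203 by edgeR). Oasl2, a further gene of the OAS family, rose by a log2 fold change of 2.93 (SE 0.60, adjusted p = 0.00111 by edgeR), with 9.89 to 17.7 CPM in benign tissue and 8.44 to 281 CPM in tumors. Xaf1, an interferon-induced promoter of cell death, had 8.84 to 22.4 CPM in benign tissue and 5.88 to 102 CPM in tumors, with tumor sample 1 inside the benign range (log2 fold change 1.54, SE 0.52, adjusted p = 0.0218 by edgeR).

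Ifit2 and Ifit3, which lie beside Ifit1 on chromosome 19, did not pass the test. Ifit2 had 9.62 to 22.2 CPM in benign tissue and 2.02 to 27.8 CPM in tumors, where tumor sample 1 was the lowest (log2 fold change -0.01, SE 0.49, adjusted p = 0.987 by edgeR). Ifit3 had 9.86 to 22.5 CPM in benign tissue and 2.30 to 114 CPM in tumors, and tumor samples 1 and 5 were below every benign sample (log2 fold change 1.15, SE 0.73, adjusted p = 0.196 by edgeR). Ifit3 and its near-identical copy Ifit3b can share reads, as can Oas1a and other Oas1 genes, so their separate levels are uncertain. For Rsad2, Bst2, Ifi35 and Samhd1, which act on viral lipids, virion release, signaling and nucleotide pools, the log2 fold changes lay between -0.18 and 0.82 and none passed the test. Ifi35 had the lowest value of the effectors, -0.18 (SE 0.21, adjusted p = 0.472 by edgeR), with 33.2 to 47.6 CPM in benign tissue and 25.1 to 62.5 CPM in tumors.

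Mx1, a dynamin-like GTPase that blocks influenza viruses, had its highest benign level in benign sample 1. That sample had 14.1 CPM, the other benign samples had 0.264 to 1.31 CPM, and the tumors had 0.895 to 25.5 CPM. With all 12 samples the log2 fold change was 1.65 (SE 0.89, adjusted p = 0.131 by edgeR), and without benign sample 1 it was 3.29 (adjusted p = 0.00226 by edgeR). In the latter comparison 31.5% of all genes tested were higher in tumors and 32.4% were lower. With benign sample 1 kept, Mx1 was also called higher by DESeq2 and with the replicate block. The same held without tumor sample 5 (log2 fold change 1.96, adjusted p = 0.0637 by edgeR).

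**Figure D4:**
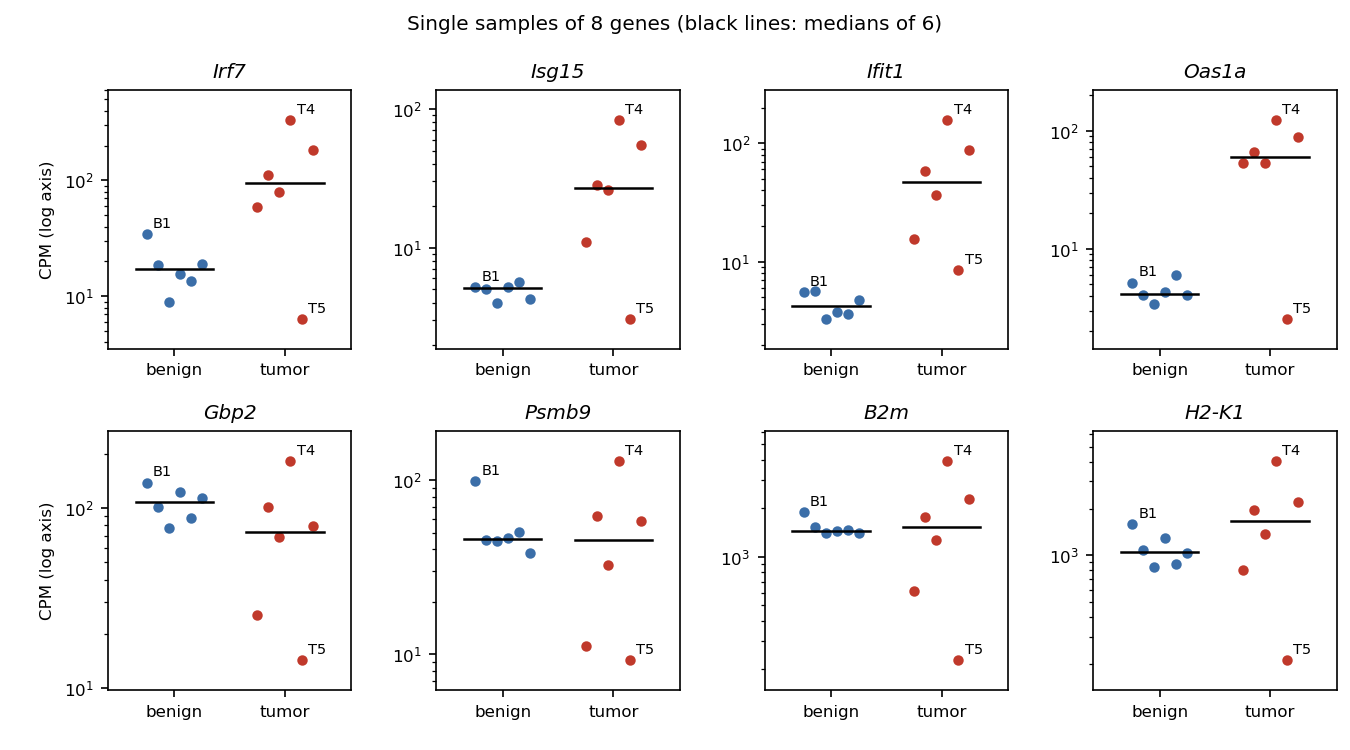
CPM of 8 genes in each of the 6 benign samples (blue) and 6 tumors (red) on log axes, with black lines at the medians and benign sample 1 (B1), tumor sample 4 (T4) and tumor sample 5 (T5) marked. In the upper row 5 of 6 tumors (all 6 for Ifit1) lie above every benign sample, and in the lower row the tumors spread to both sides of the benign samples.

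Parp9, Dtx3l and Parp14 encode ADP-ribosyltransferases and their ubiquitin ligase partner, which tune the interferon response. None passed the test, with log2 fold changes of 0.31 (SE 0.26), 0.45 (SE 0.30) and 0.33 (SE 0.42) and adjusted p-values of 0.330, 0.222 and 0.532 by edgeR. Dtx3l, the one with the largest value, ranged from 40.1 to 78.2 CPM in benign tissue and from 39.1 to 139 CPM in tumors, so the tumor range enclosed the benign one.

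Of the 6 interferon-induced GTPases, a group that acts in defense against intracellular pathogens, Iigp1 and Irgm1 rose. Without tumor sample 5, 4 of the 6 were higher, and without tumor sample 4 only 1 was. Irgm1 ranged from 25.5 to 56.5 CPM in benign tissue and from 47.1 to 277 CPM in tumors (median 89.2), with 5 tumors above every benign sample (log2 fold change 1.70, SE 0.38, adjusted p = 0.00219 by edgeR). Iigp1 had the widest range of the 41 genes. It had 37.7 to 93.4 CPM in benign tissue, and tumor samples 1 to 6 had 28.2, 202, 166, 1120, 0.767 and 127 CPM, where 0.767 CPM stands for 6 counts. Its log2 fold change of 2.16 (SE 0.98, adjusted p = 0.0766 by edgeR) became 0.84 without tumor sample 4 (adjusted p = 0.385 by edgeR). Igtp was just outside the threshold (log2 fold change 1.29, SE 0.64, adjusted p = 0.106 by edgeR), with 19.0 to 60.4 CPM in benign tissue and 8.70 to 262 CPM in tumors.

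The guanylate-binding proteins did not move as a group. Gbp3 had a log2 fold change of 0.84 (SE 0.52, adjusted p = 0.190 by edgeR), Gbp7 of -0.03 (SE 0.46, adjusted p = 0.959 by edgeR) and Gbp2 of -0.44 (SE 0.46, adjusted p = 0.435 by edgeR). Gbp2 was the lowest of the GTPases. It had 77.3 to 138 CPM in benign tissue and 25.5, 101, 69.0, 182, 14.3 and 79.0 CPM in tumor samples 1 to 6, so that 3 tumors were below every benign sample and only tumor sample 4 was above them. The ISRE letters printed above thus stood before genes of both kinds, Irgm1 with a rise and Gbp2 without one.

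The immunoproteasome replaces the 3 catalytic subunits of the constitutive proteasome and changes which peptides are cut. Psmb8 had 91.6 to 199 CPM in benign tissue and 31.8 to 328 CPM in tumors (log2 fold change 0.23, SE 0.48, adjusted p = 0.704 by edgeR). Psmb9 had 38.2 to 99.3 CPM in benign tissue. In tumor samples 1 to 6 it had 11.1, 62.3, 32.6, 129, 9.21 and 58.3 CPM, which lie on both sides of the benign samples (log2 fold change -0.10, SE 0.54, adjusted p = 0.886 by edgeR). Psmb10 was lower in tumors, with 44.3 to 75.2 CPM in benign tissue (median 51.9) and 16.8 to 52.9 CPM in tumors (median 32.7). There 5 of 6 tumors were below every benign sample (log2 fold change -0.75, SE 0.25, adjusted p = 0.0223 by edgeR).

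Psmb8, Psmb9 and Psmb10 were also set against the constitutive subunits they replace, Psmb5, Psmb6 and Psmb7. Psmb5 and Psmb7 were themselves lower in tumors, by log2 fold changes of -0.47 (SE 0.14, adjusted p = 0.0120 by edgeR) and -0.49 (SE 0.16, adjusted p = 0.0172 by edgeR). Psmb6 did not pass the test, with a log2 fold change of -0.19 (SE 0.12, adjusted p = 0.182 by edgeR). The CPM ratio of Psmb8 to Psmb5 ranged from 1.42 to 4.88 in benign tissue and was 0.863, 4.30, 3.11, 7.58, 0.678 and 4.78 in tumor samples 1 to 6. On the log2 scale the ratio was 1.04 ± 0.64 in benign tissue and 1.35 ± 1.41 in tumors (mean ± SD, n = 6 each), a difference of 0.31 by a two-sided exact permutation test with p = 0.641. For Psmb9 to Psmb6 the difference in log2 ratio was -0.41 (exact permutation p = 0.563) and for Psmb10 to Psmb7 it was -0.37 (exact permutation p = 0.325). Over the 3 ratios every Benjamini-Hochberg adjusted p was 0.641, where the smallest p that the design allows is 0.00216.

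In peptide transport and loading 1 gene fell. Tap2 had 151 to 219 CPM in benign tissue (median 175) and 64.0 to 188 CPM in tumors (median 117), and 5 of 6 tumors were below every benign sample (log2 fold change -0.65, SE 0.23, adjusted p = 0.0305 by edgeR). Its partner Tap1 did not pass the test. It had 41.9 to 198 CPM in benign tissue, the highest in benign sample 1, and 57.9, 160, 116, 404, 36.7 and 152 CPM in tumor samples 1 to 6 (log2 fold change 0.84, SE 0.53, adjusted p = 0.193 by edgeR). Tapbp, the gene of tapasin, which holds class I molecules at the transporter, had a log2 fold change of 0.16 (SE 0.27, adjusted p = 0.647 by edgeR).

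The class I molecules were among the more abundant of the 41 genes, and none of the 3 passed the test with all 12 samples. B2m had 1411 to 1895 CPM in benign tissue (median 1455). In tumor samples 1 to 6 it had 614, 1772, 1276, 3933, 228 and 2284 CPM, so that 3 tumors were below every benign sample and 2 were above (log2 fold change 0.14, SE 0.49, adjusted p = 0.826 by edgeR). H2-K1 had 836 to 1595 CPM in benign tissue and 809, 1967, 1364, 4033, 212 and 2195 CPM in the same tumors (log2 fold change 0.66, SE 0.50, adjusted p = 0.277 by edgeR). H2-D1 had 2009 to 3492 CPM in benign tissue and 310 to 5828 CPM in tumors (log2 fold change -0.05, SE 0.48, adjusted p = 0.935 by edgeR).

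Tumor sample 4 held 17.2 times the B2m, 19.1 times the H2-K1 and 18.8 times the H2-D1 of tumor sample 5. Per kilobase of exon, mean levels in benign tissue were 1777 CPM for B2m, 1057 CPM for H2-D1 and 381 CPM for H2-K1, and in tumors they were 1959, 1019 and 600 CPM per kilobase. The 2 heavy chain genes are near copies of each other and of other H2 genes, and FVB mice carry another H2 haplotype than the mm10 reference, so the split of reads between them is uncertain. Nlrc5, the transactivator of class I promoters, had 17.1 to 79.5 CPM in benign tissue, the highest in benign sample 1, and 4.09 to 158 CPM in tumors (log2 fold change 0.74, SE 0.66, adjusted p = 0.357 by edgeR).

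Benign sample 1 was the highest benign sample for 31 of the 41 genes (75.6%, against 24.01% of all genes tested), and for 9 of the 10 class I genes. Leaving it out, 18 of the 31 interferon-induced genes were higher (Mx1 and Igtp in addition), and 1 of the 10 class I genes was higher, Tap1 (log2 fold change 1.33, adjusted p = 0.0414 by edgeR). Psmb10 and Tap2 stayed lower, with log2 fold changes of -0.59 and -0.55 (adjusted p = 0.0701 and 0.0807 by edgeR). The median log2 fold change was then 1.31 over the interferon-induced genes and 0.29 over the class I genes, against 0.01 over all genes tested. The part of lymphocyte RNA in the benign levels was not tested.

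Without tumor sample 5, 23 of the 31 interferon-induced genes and 2 of the 10 class I genes (Tap1 and H2-K1) were higher, where 30.7% of all genes tested were higher and 33.4% were lower. H2-K1 then had a log2 fold change of 0.96 (adjusted p = 0.0322 by edgeR). Without tumor sample 4, 15 of the 31 and 0 of the 10 were higher and 1 of the 31, Ifi35, was lower (log2 fold change -0.33, adjusted p = 0.0852 by edgeR), where 29.5% were higher and 31.5% were lower. The median over the class I genes was 0.41 without tumor sample 5 and -0.21 without tumor sample 4. For the interferon-induced genes the 2 medians were 1.46 and 0.79.

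Markers of B, T and NK cells were low in the tumors. The 8 B cell markers summed to 0.9 to 3.2 CPM and the 6 NK cell markers to 0.4 to 3.1 CPM, where 3 counts, taken here as the floor, correspond to 0.329 to 0.467 CPM in a tumor library. The 8 T cell markers summed to 8.1, 10.3, 5.8, 17.4, 2.8 and 10.1 CPM in tumor samples 1 to 6, highest in tumor sample 4 and lowest in tumor sample 5, as for most of the 41 genes. Cd8a, which marks cytotoxic T cells, had 1.56, 2.61, 0.963, 5.94, 0 and 4.17 CPM in these tumors, and Cd3e, part of the T cell receptor complex, had 0.81 CPM in tumor sample 4 and 0 in tumor sample 5. Macrophage markers were highest in tumor sample 3 and lowest in tumor sample 5. Their 8 genes summed to 236, 398, 407, 361, 211 and 269 CPM in tumor samples 1 to 6 and to 393 to 553 CPM in benign tissue. Of the 8, 6 were lower in tumors while Fcgr1 was higher (log2 fold change 1.28, adjusted p = 0.00541 by edgeR). Leukocyte markers, 8 in all, summed to 234 to 572 CPM in tumors and to 186 to 349 CPM in benign samples 2 to 6. The sum of 572 CPM was that of tumor sample 5, where Lcp1, also made by some carcinoma cells, gave 501 CPM, and tumor sample 5 was the lowest tumor for 6 of the 8 markers. The epithelial markers summed to 2107, 3501, 3212, 3393, 3925 and 2702 CPM in tumor samples 1 to 6. The part of these cells in the tumor levels was not tested.

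Other genes of the pathway were read from lists of 149 genes, of which 132 were tested, 38 were higher (28.8%, against 28.2% of all genes tested) and 32 were lower (24.2%, against 34.8%). Of 11 interferon ligands only Ifng was in the table. It had 0 counts in all 6 tumors, which allows up to 0.329 to 0.467 CPM per tumor by counting error, and at most 0.741 CPM in a benign sample. Of 9 receptors and kinases 2 were higher (22.2%) and 3 were lower (33.3%). The higher ones were Jak1 (log2 fold change 0.75, SE 0.22, adjusted p = 0.0120 by edgeR) and Ifnlr1 (0.73, SE 0.25, adjusted p = 0.0240 by edgeR). Ifngr1, the binding chain of the interferon gamma receptor, fell most, from a benign range of 139 to 225 CPM to a tumor range of 32.2 to 54.3 CPM without overlap (log2 fold change -2.14, SE 0.16, adjusted p = 2.16e-07 by edgeR). Ifngr2, its signaling chain, followed (log2 fold change -0.73, SE 0.15, adjusted p = 0.000961 by edgeR).

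Of 12 other signaling genes and regulators 2 were higher (16.7%, against 28.2% of all genes tested), Irf2bp1 (log2 fold change 0.49, adjusted p = 0.00423 by edgeR) and Pias1 (0.34, adjusted p = 0.0563). A further 6 were lower (50%, against 34.8%), led by Socs1 and Socs3, inhibitors of cytokine receptors. Without benign sample 1, 4 of the 12 were higher and 2 were lower, where 31.5% of all genes tested were higher and 32.4% were lower. Irf2, Irf8 and Irf2bp2 were among those no longer called lower in that comparison (adjusted p = 0.296, 0.186 and 0.106 by edgeR). Socs1 had 1.09, 0.963, 1.93, 2.43, 0.128 and 2.09 CPM in tumor samples 1 to 6 and 2.12 to 15.6 CPM in benign tissue, where benign sample 1 was the highest. Its log2 fold change was -1.74 (adjusted p = 0.0302 by edgeR) and -0.89 without that sample (adjusted p = 0.125 by edgeR). Socs3 had log2 fold changes of -1.58 and -1.39 in the same 2 comparisons (adjusted p = 0.00562 and 0.0153 by edgeR). Of 15 nucleic acid sensing genes 5 were higher (33.3%) and 2 were lower (13.3%), and 0 were lower without benign sample 1 and 4 without benign sample 4. Zbp1, a sensor of Z-form nucleic acid, rose by a log2 fold change of 2.85 (SE 0.73, adjusted p = 0.00477 by edgeR), and its tumor levels were again highest in tumor sample 4 (147 CPM) and lowest in tumor sample 5 (3.07 CPM). Tlr3, the endosomal sensor of double-stranded RNA, rose from 13.7 to 25.4 CPM in benign tissue to 60.7 to 110 CPM in tumors without overlap, and tumor sample 5, at 72.5 CPM, was not the lowest (log2 fold change 2.05, SE 0.17, adjusted p = 5.48e-07 by edgeR). The 2 that were lower, Aim2 and Ikbke, were highest in benign sample 1, and without it they had log2 fold changes of -0.40 and -0.37 (adjusted p = 0.299 and 0.437 by edgeR).

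Of 62 other interferon-induced genes tested, 18 were higher (29.03%, near the share of all genes tested) and 14 were lower (22.6%), with a median log2 fold change of 0.37. Without tumor sample 5, 29 of 63 tested were higher, where 30.7% of all genes tested were higher. The median was 0.14 without tumor sample 4 and 0.68 without benign sample 1. The largest rises were those of Apol9a (5.68, SE 0.84, adjusted p = 7.83e-05 by edgeR) and Apol9b (5.14, SE 0.89, adjusted p = 0.000286 by edgeR), near-identical neighbours whose reads can be shared. Apol9a had 0.264 to 2.04 CPM in benign tissue and 12.1, 47.4, 28.5, 133, 4.35 and 64.4 CPM in tumor samples 1 to 6, again highest in tumor sample 4 and lowest in tumor sample 5. The largest falls were those of Ifi27l2a (-4.82, SE 0.43, adjusted p = 8.61e-07 by edgeR) and Gbp11 (-3.87, SE 0.70, adjusted p = 0.000400 by edgeR). Ifi27l2a had 230 to 634 CPM in benign tissue and 4.86 to 28.1 CPM in tumors, so an interferon-induced gene that is abundant in benign tissue was lower in every tumor.

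Of 16 other class I genes tested, 6 were higher (37.5%, against 28.2% of all genes tested) and 2 were lower (12.5%, against 34.8%). The count of higher genes was 10 without benign sample 1, 11 without tumor sample 5 and 3 without tumor sample 4. In these fits 31.5%, 30.7% and 29.5% of all genes tested were higher. The largest rises were those of H2-Q7 (1.65, SE 0.75, adjusted p = 0.0782 by edgeR) and H2-T23, the gene of Qa-1 (1.26, SE 0.34, adjusted p = 0.00689 by edgeR), with 41.3 to 135 CPM in benign tissue and 87.8 to 328 CPM in tumors for the latter. Cd1d1, which presents lipids to NKT cells, fell most, from 126 to 262 CPM in benign tissue to 7.54 to 58.7 CPM in tumors (log2 fold change -2.88, SE 0.40, adjusted p = 4.93e-05 by edgeR), followed by H2-T24 (-1.08, SE 0.30, adjusted p = 0.00735). Of 15 other antigen processing genes 5 were higher (33.3%, near the 28.2% of all genes tested). These were led by Pdia3 (0.91, SE 0.16, adjusted p = 0.000418 by edgeR) and Calr (0.70, SE 0.19, adjusted p = 0.00606 by edgeR), chaperones that fold class I molecules and many other proteins. In the same list 3 were lower (20%, against 34.8% of all genes tested). They were led by Psme2, a subunit of the interferon-inducible proteasome activator (-0.76, SE 0.16, adjusted p = 0.00159 by edgeR), and Lnpep (-0.59, SE 0.18, adjusted p = 0.0130 by edgeR).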

How the data were processed

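RNA was extracted from 6 mammary tumors and 6 benign mammary samples, enriched for poly A RNA and sequenced from directional libraries. The authors quantified it with Salmon and deposited expected counts (estimated counts) per gene as whole numbers, not scaled for library size. The submitters' processing notes name Trim Galore, Salmon, DESeq2 and the build mm10, while tool versions and the annotation are not given in the sources used here. All 12 columns were matched to samples by their labels.

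Counts were filtered with filterByExpr (minimum count 10, minimum total 15), scaled by TMM and tested two-sided in edgeR (version 4.0.16, R version 4.3.3) by quasi-likelihood, and p-values were adjusted by Benjamini-Hochberg across the 13191 genes kept and read at 0.1, which the paper uses. A standard error is the absolute log2 fold change divided by the square root of F. Log2 CPM used 2 added counts. Subunit ratios were compared by exact permutation. The edgeR and DESeq2 tests were first tested on simulated data. Replicates were compared before use, and no pair agreed within sampling noise (smallest chi-square per degree of freedom 12.6). P-values measure the spread between samples, and intervals and floors (3 counts) cover counting error only. Whether each tumor came from its own mouse is not given in the sources used here. Lengths are unions of exons in GENCODE M21.

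The members and the lists were chosen with earlier results of these data known. All 41 members are named, with full values for the largest rise, the largest fall and the genes higher in tumors in each role. From each other list, up to 2 genes that rose most and 2 that fell most among those called are named, beside marker genes and Psmb5, Psmb6 and Psmb7. Cd8a, Cd3e, Lcp1 and Fcgr1 were singled out of the marker lists, and Igtp, Ifit3 and Gbp3 for comparison, after their values were seen. Alternatives were DESeq2 1.42.0, other scalings and filters, a threshold of 0.05, a replicate block, and leaving out samples. Leaving out tumor samples 4 and 5 together, or benign sample 1 with tumor sample 5, was chosen after seeing the data.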

Additional observations from a re-analysis of the deposited data

Results flagged for a closer look

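In groups of 6 samples, the gap between the highest or lowest sample and its nearest neighbour was divided by the range of the group and read against Dixon's critical value at the usual level, over 88 groups of log2 CPM values or log2 ratios. Chance alone flags about 1 in 20 groups, and 10 of the 88 were past the value. In 9 of the 10, benign sample 1 was the highest benign sample. The gap was 0.671 of the range for Mx1, 0.702 for Samhd1, 0.712 for Irgm1, 0.813 for Psmb8, 0.717 for Psmb9, 0.701 for B2m and 0.681 for Nlrc5. For the log2 ratios it was 0.717 for Psmb8 to Psmb5 and 0.643 for Psmb9 to Psmb6. This is the sample with 829 CPM of B cell markers and 787 CPM of T cell markers. The remaining group was Oas1a in tumors, where tumor sample 5 was the lowest with a gap of 0.777 of the range.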

How the results depend on the processing

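Of the 18 genes called with all 12 samples, 12 kept their direction and their side of the threshold under every alternative run, and 0 were called in the other direction. The others fell short under some: Stat2 and Xaf1 without benign samples 3, 4 and 6, Ddx58 there and with the replicate block, Psmb10 without benign sample 1 and tumor sample 5, Tap2 there and without benign samples 3, 4 and 6, and Iigp1 under 8 alternatives. Of the 23 genes not called, 13 were called under at least 1 alternative. Leaving out 1 sample at a time, the interferon-induced genes counted 15 to 23 higher and 0 to 1 lower, with medians of 0.79 to 1.46, and the class I genes 0 to 2 higher and 2 lower in each case, with medians of -0.21 to 0.41. Both ends of each median came from leaving out tumor samples 4 and 5. The other pathway genes counted 35 to 56 higher and 23 to 33 lower. In these fits 26.6% to 31.5% of all genes tested were higher and 31.5% to 34.3% were lower. Without benign samples 3, 4 and 6, 12 of the 31 interferon-induced genes were higher and 1 class I gene was lower. There 26.7% of all genes tested were higher and 28.7% were lower. Without benign sample 1 and tumor sample 5, 4 of the 10 class I genes were higher and 0 lower. In that fit 62 of 132 other pathway genes were higher, where 32.2% of all genes tested were higher and 33% were lower. DESeq2 called 19 interferon-induced genes higher (against 26.6% of all genes tested) and total-count scaling 18 (against 30.8%).

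Values near 0 that were not called changed sign. Ifit2 was 0.027 by DESeq2, 0.023 by RLE scaling, 0.050 by total counts, 0.079 with a filter of 1 count, 0.040 with a filter of 10 counts in every sample, 0.42 without benign sample 1 and tumor sample 5, and -0.29 to 0.28 with 1 sample left out. In that order Gbp7 was 0.0060, 0.0019, 0.038, 0.058, 0.020, 0.41 and -0.60 to 0.23. H2-D1 was 0.036, 0.037 and 0.0020 by total counts and the 2 filters, 0.33 without the 2 samples and -0.39 to 0.25. Without these 2 samples Irf1 was 0.0064, Samhd1 0.26 and Psmb9 0.44. Rsad2 was -0.15 without tumor samples 4 and 5. With 1 sample left out, Samhd1 was -0.25 to 0.14, Psmb9 -0.57 to 0.22, Rsad2 -0.30 to 0.57, Psmb8 -0.18 to 0.51 and B2m -0.24 to 0.43, and the log2 ratio difference of Psmb8 to Psmb5 was -0.0012 to 0.69, and -0.060 without benign samples 3, 4 and 6. The causes were not tested.

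The replicate numbers do not pair the samples, which came from different mice (correlations of same-numbered deviations -0.12 to 0.10, 1 of 6 over 0.1, and 0 of 6 benign samples closest to their own number). With the replicate block, 15 interferon-induced genes were higher and 2 class I genes lower, with medians of 0.77 and -0.21. In that fit 26.3% of all genes tested were higher and 32.1% were lower, and Rsad2 was -0.010, Psmb8 -0.11 and B2m -0.31. Differences within replicate numbers gave 0.31 for the Psmb8 to Psmb5 ratio (exact sign permutation p = 0.688).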

Other observations

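Fcgr1, the gene of the high-affinity Fc receptor and itself induced by interferon, was higher in tumors although the other macrophage markers were not. It had 1.43 to 4.25 CPM in benign tissue and 4.05, 7.70, 8.79, 11.7, 3.71 and 6.26 CPM in tumor samples 1 to 6, so tumor sample 4 was again the highest and tumor sample 5 the lowest. Oas1g, which shares sequence with Oas1a, had 10.7, 36.3, 24.4, 68.8, 0.767 and 28.1 CPM in the same tumors and 0.125 to 1.95 CPM in benign tissue. Cxcl9, a chemokine induced by interferon gamma, had 10.4 to 39.1 CPM in benign tissue and 0.767 to 2.02 CPM in tumors without overlap. Tumor sample 4, the highest tumor for all 41 genes, had the lowest Erbb2 level of the tumors, 1989 CPM, while tumor sample 5, with 6808 CPM, was in the middle of their range. These genes were picked after their values were seen.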
